A study of Mus musculus with 4 samples.

Results

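A set of 10 genes that set the threshold for cell death in lymphocytes were followed across 4 RNA libraries of activated mouse T cells. They are the guardians Bcl2, Bcl2l1 and Mcl1, the effectors Bax and Bak1, the BH3-only genes Bcl2l11, Bid, Pmaip1 and Bbc3, and the death receptor gene Fas. The 10 genes were taken by symbol from a deposited table of 35275 genes. The rule uses no measured value, but it was written with earlier results of these data known. Splenic T cells of C57BL/6 mice had been activated for 3 days with antibodies to CD3 and CD28 and with IL-2, and their total RNA was sequenced. The mice were Cers6 knockout at 8 months, Cers6 knockout at 2 months, wild type at 8 months or wild type at 2 months. Cers6 encodes ceramide synthase 6, which attaches a fatty acyl chain to a sphingoid base to make ceramide, a lipid studied for its part in cell death and ageing. The series asks how the expression changes of ageing depend on this enzyme.

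A single library stands for each group and there is no replicate check inside one, although the series text speaks of duplicates. The labels do not say which part of Cers6 was deleted, in which tissues, or whether RNA of several mice was pooled. Levels are given as CPM, read counts relative to library size after scaling by the trimmed mean of M values (TMM). All intervals are exact 95% intervals that cover counting error only, not the spread between mice. Library totals lay between 18145555 and 24239344 counts, and every member had 239 counts or more in every library, so that counting error is small beside most differences below.

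Cells die by the mitochondrial path when BAX or BAK1 permeabilises the outer mitochondrial membrane. BCL2, BCL-XL (the product of Bcl2l1) and MCL1 hold these effectors in check, and the BH3-only proteins BIM (Bcl2l11), BID, NOXA (Pmaip1) and PUMA (Bbc3) release them by binding the guardians or by acting on the effectors directly. In T cells BIM is known as a main mediator of death when cytokines are withdrawn, and FAS triggers caspase 8 when it meets its ligand, which is known to delete repeatedly stimulated T cells. BID is cut by caspase 8 and so links FAS to the mitochondria.

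BH3, for BCL2 homology 3, is a helix through which members of the family bind each other, and a core of the helix is a leucine followed after 3 residues by glycine and aspartate. These letters are shown because guardians, effectors and 3 of the 4 BH3-only members share them. The core was found once in 7 of the 10 members in GENCODE M21 coding sequences (build GRCm38), and below the capitals mark the leucine codon and the glycine and aspartate codons, written 5′ to 3′ on the coding strand.
Bcl2, chr1:106712584-106712601, minus strand: CTCcgccgggctGGGGAT
Bcl2l1, chr2:152829706-152829723, minus strand: CTGagagaggcaGGCGAT
Mcl1, chr3:95659436-95659453, plus strand: CTGcggcgcgtgGGCGAC
Bax, chr7:45466006-45466023, minus strand: CTCcggcgaattGGAGAT
Bak1, chr17:27022540-27022557, minus strand: CTTgctctcatcGGAGAT
Bcl2l11, chr2:128147150-128147167, plus strand: CTGcggcggatcGGAGAC
Bid, chr6:120897298-120897315, minus strand: CTCgcccaaataGGCGAT
Pmaip1 held the core 2 times, and Bbc3 and Fas held no match to these letters. The letters are short: 2866 of 21782 genes with a complete coding sequence (13.2%) hold them, so a match is a description and not evidence of a BH3 domain.

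The windows from 250 bases before to 50 bases after the start sites of 3 members are shown because Bcl2l11 and Fas had the highest, and Bak1 the lowest, knockout over wild type folds at 8 months. They come from RefSeq (build GRCm38.p6), written 5′ to 3′ on the gene's strand, and capitals mark the letters of 7 motifs searched on both strands.
Bcl2l11, chr2:128125788-128126087, plus strand: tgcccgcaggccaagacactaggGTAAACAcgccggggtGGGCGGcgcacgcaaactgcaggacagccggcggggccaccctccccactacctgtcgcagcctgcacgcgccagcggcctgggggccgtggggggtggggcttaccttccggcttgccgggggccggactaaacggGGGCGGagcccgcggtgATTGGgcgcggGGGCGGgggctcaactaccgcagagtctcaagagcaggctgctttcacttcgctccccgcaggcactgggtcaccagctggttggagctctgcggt
Fas, chr19:34290409-34290708, plus strand: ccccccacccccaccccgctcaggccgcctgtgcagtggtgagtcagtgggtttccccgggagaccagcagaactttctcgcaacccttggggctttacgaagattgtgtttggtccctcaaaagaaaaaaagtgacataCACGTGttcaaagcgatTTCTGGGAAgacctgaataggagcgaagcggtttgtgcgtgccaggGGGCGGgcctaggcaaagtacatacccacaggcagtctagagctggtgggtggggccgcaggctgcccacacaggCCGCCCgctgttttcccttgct
Bak1, chr17:27028578-27028877, minus strand: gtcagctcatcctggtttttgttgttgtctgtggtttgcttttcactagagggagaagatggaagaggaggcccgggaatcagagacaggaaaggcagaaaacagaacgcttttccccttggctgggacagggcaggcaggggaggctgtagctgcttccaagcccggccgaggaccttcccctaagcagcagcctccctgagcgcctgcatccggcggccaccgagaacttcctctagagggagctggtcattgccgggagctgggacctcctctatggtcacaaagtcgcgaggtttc
The motifs were GTAAACA (forkhead), TTCNNNGAA (STAT), CACGTG (E-box), GGGCGG (GC box), CCAAT (a common promoter box), TATAAA (a core promoter box) and a p53 half-site. The Bcl2l11 window holds GTAAACA 227 bases before the start, 3 copies of GGGCGG, and CCAAT on the other strand. Fas holds CACGTG 110 bases and TTCNNNGAA 93 bases before its start, and GGGCGG on each strand. The Bak1 window holds none of the 7. RefSeq windows were matched for 9 members with 14 windows in all, Bcl2l11 having a further window that is not shown. Across 32851 mouse windows GTAAACA occurs in 3.65% (2 of the 14 member windows), TTCNNNGAA in 8.298% (1 of 14), CACGTG in 7.15% (3 of 14), GGGCGG in 35.66% (10 of 14), CCAAT in 37.41% (3 of 14), TATAAA in 13.62% (0 of 14) and the p53 half-site in 8.356% (1 of 14, in Bax). Matches describe letters and say nothing of binding.

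Several properties of the libraries bear on what follows. The 15 T cell markers were all detected and summed to 3040.2, 3973, 3362 and 3964 CPM in the knockout at 8 months, knockout at 2 months, wild type at 8 months and wild type at 2 months. RNA of other splenic cells was present too: 14 B cell markers, none at 0, summed to 1803, 2595, 4144 and 2929 CPM in the same order. Of 10 NK cell markers the sums were 274, 278, 92.0 and 421 CPM, with Klra8, Klra4 and Klra7 at 0 in the wild type at 8 months. The sums of 12 neutrophil markers were 7.49, 0.523, 113 and 2.48 CPM (0, 6, 1 and 2 of them at 0), and those of 14 monocyte and macrophage markers 48.0, 32.7, 122 and 45.8 CPM (4, 6, 3 and 2 at 0). The remaining lists were low: 8 dendritic cell markers summed to 28.3, 17.5, 22.5 and 23.9 CPM, 8 erythroid markers to 59.3, 23.5, 40.0 and 17.1 CPM, and 6 platelet markers to 32.5, 4.24, 29.4 and 10.4 CPM, in the same order. Xist, the RNA of the inactive X chromosome, had 4 counts in the knockout at 8 months, 0 in the knockout at 2 months, 1 in the wild type at 8 months and 10117 in the wild type at 2 months, and 4 Y-linked genes summed to 6529, 3649, 3529 and 2071 counts in the same order. The wild type at 2 months thus held both kinds of RNA, and the comparisons at 8 months and with age in knockout do not use it. The comparisons at 2 months and with age in wild type, the differences between folds and the tests over all 4 libraries do use it. The part of this in their values was not tested. Cers6 had 3.38 CPM in knockout against 32.0 CPM in wild type at 8 months, and 9.17 CPM in knockout against 13.1 CPM in wild type at 2 months, so at 2 months the knockout group rests on its label. In bulk RNA, fewer cells of a type and less RNA per cell cannot be told apart, and the part of these other cells in the differences below was not tested.

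Read per transcript length, as deposited FPKM, Mcl1 led the family in every library. Its FPKM was 176 in the knockout at 8 months, 152 in the knockout at 2 months, 197 in the wild type at 8 months and 145 in the wild type at 2 months. Bax came next, at 85.0, 93.8, 105 and 103 FPKM in the same libraries. The ranges of Mcl1 and Bax did not overlap, nor did those of Bax and the next gene.

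Below Bax the order by median FPKM was Fas (34.3), Bcl2l11 (33.6), Bak1 (29.0), Bcl2 (19.1), Bbc3 (15.0), Bcl2l1 (12.02), Bid (10.5) and Pmaip1 (6.38), and in this stretch every neighbouring pair overlapped over the 4 libraries. Fas, for example, had 53.2 FPKM in the knockout at 8 months, 36.3 in the knockout at 2 months, 23.9 in the wild type at 8 months and 32.4 in the wild type at 2 months. Per-length values use 1 length per gene and move with the isoform a cell uses.

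Of the summed FPKM of the 9 BCL2 family members, the guardians held 51.2% in the knockout at 8 months, 50.5% in the knockout at 2 months, 54.4% in the wild type at 8 months and 47.0% in the wild type at 2 months. The effectors held 25.4%, 32.9%, 32.7% and 36.3% in the same libraries. BH3-only genes held 23.4% in the knockout at 8 months, against 16.7%, 12.9% and 16.7% in the knockout at 2 months, the wild type at 8 months and the wild type at 2 months. The knockout at 8 months thus had the highest BH3-only share and the lowest effector share of the 4 libraries, and the wild type at 8 months the lowest BH3-only share. Bcl2l11 made most of this difference, with 13.3% of the family's FPKM in the knockout and 5.88% in the wild type at 8 months. These shares do not depend on library scaling, are not corrected for a trend on gene length, and were chosen after the values were seen.

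**Figure D1:**
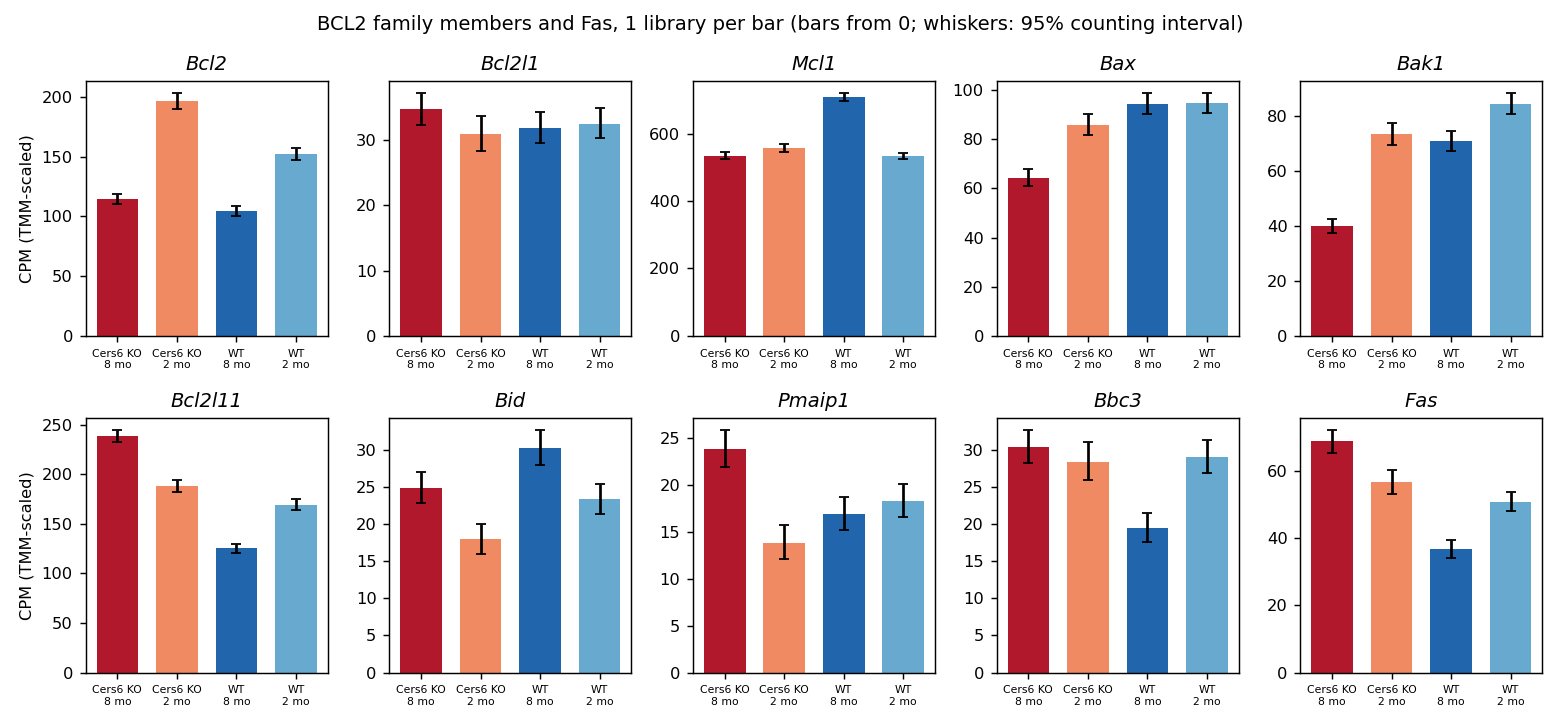
TMM-scaled CPM of the 10 members (1 panel each, bars from 0) in the Cers6 knockout at 8 and 2 months and the wild type at 8 and 2 months, with whiskers for the 95% counting interval. Bcl2l11 and Fas stand highest in the knockout at 8 months (238 and 68.8 CPM) and lowest in the wild type at 8 months (125 and 36.7 CPM), Bak1 is lowest in the knockout at 8 months (39.8 CPM), and Bcl2 is lower at 8 than at 2 months in both genotypes.

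At 8 months the knockout library had more RNA of 3 BH3-only genes and of Fas, and less of both effectors, than the wild-type library. Bcl2l11 and Fas were nearly 2-fold higher, Bbc3 and Pmaip1 were higher by less, and Bak1 and Bax were lower. Guardians lay closer together, apart from a lower Mcl1. None of these differences reached 2-fold, and none passed the test across both ages given further on.

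Bcl2l11 (ENSMUSG00000027381, chr2:128126038-128162547 in the deposited table, build GRCm38), which encodes BIM, had 238 CPM in the knockout and 125 CPM in the wild type at 8 months. At 2 months it had 188 CPM in the knockout and 169 CPM in the wild type. The knockout at 8 months was the highest and the wild type at 8 months the lowest library, with the 2-month libraries between them. The log2 fold of knockout over wild type was 0.93 (0.86 to 0.996) at 8 months, against 0.15 (0.09 to 0.22) at 2 months. Of the 12133 genes that reached 2 CPM in any library, 19.7% had a larger absolute fold at 8 months.

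Fas (ENSMUSG00000024778, chr19:34290659-34327770) had the same order of libraries. It had 68.8 CPM in the knockout against 36.7 CPM in the wild type at 8 months, and 56.8 CPM in the knockout against 50.9 CPM in the wild type at 2 months. Its log2 fold of knockout over wild type was 0.91 (0.78 to 1.03) at 8 months, against 0.16 (0.03 to 0.28) at 2 months, and 20.6% of genes had a larger absolute fold at 8 months. For both genes, then, 20.6% or fewer of all genes differed by more between the 8-month libraries.

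Bbc3 (ENSMUSG00000002083, chr7:16309616-16318205), encoding PUMA, a classical p53 target, was set apart by its low level in the wild type at 8 months. It had 30.4 CPM in the knockout and 19.5 CPM in the wild type at 8 months, and 28.4 CPM in the knockout and 29.0 CPM in the wild type at 2 months. The log2 fold was 0.64 (0.46 to 0.82) at 8 months, against -0.03 (-0.20 to 0.14) at 2 months. The other 3 libraries overlapped within counting error, and the wild type at 8 months stood below them.

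Pmaip1 (ENSMUSG00000024521) encodes NOXA, which binds MCL1 in preference to BCL2. It had 23.8 CPM in the knockout against 16.9 CPM in the wild type at 8 months, but 13.9 CPM in the knockout against 18.3 CPM in the wild type at 2 months. The log2 folds of knockout over wild type therefore had opposite signs, 0.49 (0.30 to 0.69) at 8 months, against -0.40 (-0.64 to -0.17) at 2 months. The highest and the lowest library of this gene were both knockout libraries.

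Bid (ENSMUSG00000004446, chr6:120891930-120916853) was the BH3-only gene with less RNA in knockout at both ages. It had 24.9 CPM in the knockout and 30.3 CPM in the wild type at 8 months, and 17.9 CPM in the knockout and 23.3 CPM in the wild type at 2 months. Its log2 fold was -0.28 (-0.45 to -0.12) at 8 months, against -0.38 (-0.59 to -0.17) at 2 months. Over the alternative settings the 8-month value ranged from -0.30 to -0.04, the latter with library size alone. Bid overlaps Bcl2l13 on the opposite strand, which had 997 to 1250 counts, more than the 309 to 641 counts of Bid. Whether counting used the strand is not known from the sources at hand, so reads of the 2 genes may be mixed where they overlap.

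Both effectors were lower in the knockout. Bak1 (ENSMUSG00000057789, chr17:27019810-27029009) had 39.8 CPM in the knockout and 70.9 CPM in the wild type at 8 months, and 73.4 CPM in the knockout and 84.4 CPM in the wild type at 2 months. The log2 fold was -0.83 (-0.95 to -0.71) at 8 months, against -0.20 (-0.31 to -0.10) at 2 months. Bak1 thus stood out in 1 library, the knockout at 8 months, which held about as much less than the knockout at 2 months as than the wild type at 8 months. It shares bases with Ggnbp1 on the opposite strand, which had 50 to 175 counts against 931 to 1939 for Bak1.

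Bax (ENSMUSG00000003873, chr7:45461695-45466898) had 64.3 CPM in the knockout and 94.3 CPM in the wild type at 8 months, and 85.9 CPM in the knockout and 94.6 CPM in the wild type at 2 months. The wild-type libraries were alike within counting error. The log2 fold of knockout over wild type was -0.55 (-0.65 to -0.46) at 8 months, against -0.14 (-0.24 to -0.04) at 2 months. After subtraction of the trend of folds on gene length these became -0.19 and 0.04, so the size at 8 months and the sign at 2 months depended on that step.

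Among the guardians, Mcl1 (ENSMUSG00000038612, chr3:95658721-95663176) encodes a short-lived protein that T cells need to survive. It had 535 CPM in the knockout and 708 CPM in the wild type at 8 months, and 557 CPM in the knockout and 534 CPM in the wild type at 2 months. The wild type at 8 months was high, and the other 3 lay within a narrow band. The log2 fold was -0.41 (-0.44 to -0.37) at 8 months, against 0.06 (0.02 to 0.10) at 2 months.

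Bcl2 (ENSMUSG00000057329, chr1:106538178-106714274) differed more by age than by genotype under TMM scaling. It had 114 CPM in the knockout and 104 CPM in the wild type at 8 months, and 196 CPM in the knockout and 152 CPM in the wild type at 2 months. The log2 fold of knockout over wild type was 0.14 (0.05 to 0.22) at 8 months, against 0.37 (0.30 to 0.44) at 2 months. With the trend on gene length subtracted, the 8-month value was -0.23 and the 2-month value 0.14, so at 8 months the direction is not settled. With scaling on T cell genes the folds of knockout over wild type were 0.28 at 8 months and 0.37 at 2 months. The Bcl2 folds of 8 over 2 months were then -0.39 in the knockout and -0.30 in the wild type, so age and genotype differences were close in size.

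Bcl2l1 (ENSMUSG00000007659, chr2:152780668-152831728), whose product BCL-XL is known to be induced by CD28 costimulation, had the narrowest range of the members under TMM scaling. It had 34.8 CPM in the knockout and 31.9 CPM in the wild type at 8 months, and 30.9 CPM in the knockout and 32.6 CPM in the wild type at 2 months. Its log2 folds, 0.12 (-0.03 to 0.27) at 8 months, against -0.07 (-0.24 to 0.09) at 2 months, had intervals that hold 0. Over the 4 libraries its log2 CPM spanned 0.17, against 1.08 for Bak1, 0.93 for Bcl2l11 and 0.91 each for Bcl2 and Fas. With scaling on T cell genes its span was 0.55, against 0.41 for Bax, and with library size alone 0.44, against 0.31 for Bax.

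Counted over the members, 0 of 10 reached 2-fold in either direction at 8 months, where 10.4% of the 12133 genes were 2-fold or more higher and 6.47% were 2-fold or more lower in knockout. At 2 months it was again 0 of 10, with 0.923% of genes higher and 2.08% lower. At 8 months the counting interval lay above 0 for Bcl2, Bcl2l11, Pmaip1, Bbc3 and Fas, below 0 for Mcl1, Bax, Bak1 and Bid, and held 0 for Bcl2l1. At 2 months it lay above 0 for Bcl2, Mcl1, Bcl2l11 and Fas, below 0 for Bax, Bak1, Bid and Pmaip1, and held 0 for Bcl2l1 and Bbc3. The median absolute log2 fold of the members was 0.52 at 8 months, against 0.46 over all 12133 genes, and 0.16 at 2 months, against 0.21. At neither age did the members differ between genotypes by a typical amount far from that of all genes.

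**Figure D2:**
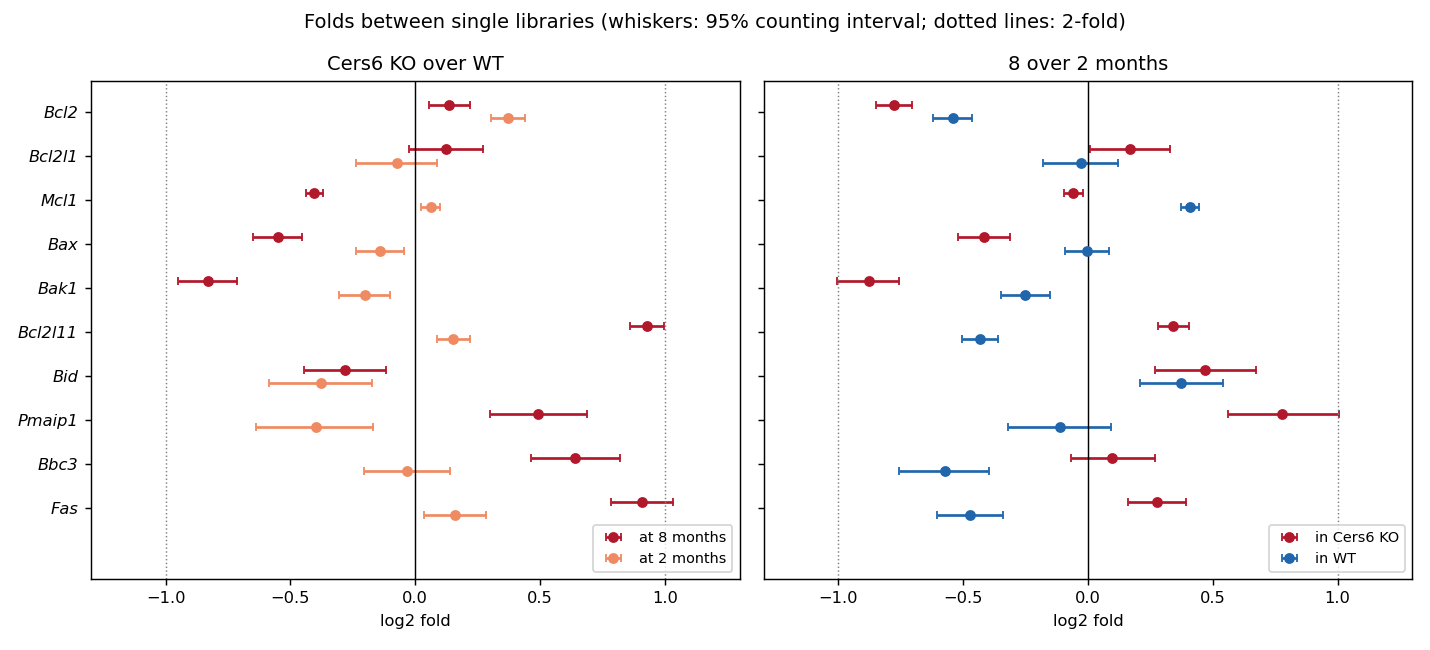
Log2 folds of the 10 members between single libraries, with Cers6 knockout over wild type at 8 and 2 months on the left and 8 over 2 months in Cers6 knockout and wild type on the right, whiskers for the 95% counting interval and dotted lines at 2-fold. At 8 months Bcl2l11 (0.93) and Fas (0.91) lie farthest to the right and Bak1 (-0.83) farthest to the left, while at 2 months every member lies between -0.40 and 0.37.

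The additive test asked for a genotype effect shared by both ages, with the libraries of the 2 ages as the only replication. By edgeR's quasi-likelihood test with Benjamini-Hochberg adjustment, 4 of 13906 genes passed (0.0288%), and 0 of the 10 members did. An unadjusted p under 0.05 was found for 0 members, against 8.36% of all genes. The member nearest to the threshold was Fas, with a log2 effect of 0.54 (SE 0.26) and an adjusted p of 0.604 in edgeR. Bak1 had -0.51 (SE 0.25, edgeR adjusted p = 0.610) and Bcl2l11 0.55 (SE 0.28, edgeR adjusted p = 0.622). Leaving out 1 library moved Bak1 between -0.08 without the knockout at 8 months and -0.97 without the knockout at 2 months. It moved Bcl2l11 between 0.34 and 0.76, and Fas between 0.31 and 0.77. Those fits drop age and hold a single library of 1 genotype, so age is mixed into their values. In the additive test the remaining members had edgeR adjusted p-values from 0.710 for Bax to 0.980 for Bcl2l1. In this model a genotype effect that differs between ages counts as spread, and 7 members had such a difference of 0.4 or more on the log2 scale. The share of all genes with a difference this wide was not computed.

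For these 7 members the folds of knockout over wild type lay apart at the 2 ages. The 8-month fold minus the 2-month fold was 0.89 (0.59 to 1.19) for Pmaip1, 0.77 (0.68 to 0.87) for Bcl2l11, 0.75 (0.57 to 0.92) for Fas and 0.67 (0.43 to 0.91) for Bbc3. It was -0.63 (-0.78 to -0.47) for Bak1, -0.47 (-0.52 to -0.42) for Mcl1 and -0.41 (-0.55 to -0.28) for Bax. With the trend on gene length subtracted, the Bax folds became -0.19 at 8 months and 0.04 at 2 months, which narrows its difference. Folds of all 12133 genes were also wider at 8 months, with a median absolute log2 fold of 0.46, against 0.21 at 2 months. With 1 library per group the difference between ages has no test, and these intervals cover counting error only.

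The authors' deposited table also gives adjusted p-values for the 4 contrasts of single libraries, and 0 of the 10 members were under 0.05 in any of them. For knockout over wild type at 8 months the authors' deposited table lists adjusted p-values of 0.261 for Bcl2l11, 0.292 for Fas and 0.375 for Bak1.

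With age, Bcl2 and Bak1 had less RNA in the 8-month libraries of both genotypes, and Bid had more. Bcl2l11 and Fas had more RNA at 8 than at 2 months in the knockout and less in the wild type. The values of the 4 libraries are those given above, and knockout and wild-type contrasts with age share no library.

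The log2 fold of 8 over 2 months for Bcl2 was -0.78 (-0.85 to -0.70) in the knockout and -0.54 (-0.62 to -0.46) in the wild type. With scaling on T cell genes the Bcl2 fold was -0.39 in the knockout and -0.30 in the wild type. For Bak1 it was -0.88 (-1.005 to -0.76) in the knockout and -0.25 (-0.35 to -0.15) in the wild type, although the wild-type value shrank to -0.01 when libraries were scaled on T cell genes. Bid had 0.47 (0.27 to 0.67) in the knockout and 0.37 (0.21 to 0.54) in the wild type. These 3 genes lay on the same side of 0 in both genotypes.

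Bcl2l11 had a log2 fold of 0.34 (0.28 to 0.40) with age in the knockout and -0.43 (-0.51 to -0.36) in the wild type. Fas had 0.28 (0.16 to 0.39) in the knockout and -0.47 (-0.60 to -0.34) in the wild type. For both genes the knockout at 8 months was above, and the wild type at 8 months below, the library of the same genotype at 2 months. Pmaip1 differed mainly in the knockout, at 0.78 (0.56 to 1.01) against -0.11 (-0.32 to 0.09) in the wild type, while Bbc3 had 0.10 (-0.07 to 0.27) in the knockout and -0.57 (-0.76 to -0.40) in the wild type. With scaling on T cell genes Bbc3 had 0.48 in the knockout and -0.34 in the wild type, so which genotype differed more is not settled.

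Mcl1 had -0.06 (-0.10 to -0.02) in the knockout and 0.41 (0.37 to 0.44) in the wild type, and the knockout value turned to 0.22 with library size alone and to 0.33 with scaling on T cell genes. Bax had -0.42 (-0.52 to -0.31) in the knockout and -0.00 (-0.09 to 0.08) in the wild type. The knockout value of Bax shrank to -0.03 when libraries were scaled on T cell genes. For Bcl2l1 the values were 0.17 (0.01 to 0.33) in the knockout and -0.03 (-0.18 to 0.12) in the wild type. The wild-type values of Bcl2l1, Bax and Pmaip1 changed sign when libraries were scaled on T cell genes and hold no direction.

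In the contrast of age 0 of 10 members reached 2-fold in the knockout, where 10.3% of genes were 2-fold or more higher and 4.71% lower, and 0 of 10 in the wild type, where 3.29% were higher and 2.77% lower. The median absolute log2 fold of the members was 0.38 in the knockout, against 0.41 over all genes, and 0.39 in the wild type, against 0.18. Within the wild type 14.3% of genes had a larger absolute fold with age than Bbc3, and 15.4% a larger one than Bcl2.

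By edgeR's quasi-likelihood test with Benjamini-Hochberg adjustment, 32 of 13906 genes (0.23%) passed for an age effect shared by both genotypes, and 0 of the 10 members did. Bcl2 had a log2 effect of -0.64 (SE 0.25, unadjusted p = 0.0207, edgeR adjusted p = 0.486) and Bak1 one of -0.55 (SE 0.25, unadjusted p = 0.0430, edgeR adjusted p = 0.582). These were the 2 of 10 members with an unadjusted p under 0.05 in edgeR, where 8.22% of all 13906 genes had one. Without the wild type at 8 months, edgeR gave Bcl2 -0.61 (adjusted p = 0.0373) and Bak1 -0.99 (adjusted p = 0.000306). Without the knockout at 8 months it gave Bcl2 -0.74 (adjusted p = 0.0479) and Bak1 -0.15 (adjusted p = 0.863). Without the wild type at 2 months the effects were -0.85 for Bcl2 and -0.41 for Bak1, and without the knockout at 2 months -0.47 and -0.61, all with edgeR adjusted p-values of 0.99982 or more. Those fits drop genotype and hold a single library of 1 age, which is assumed to vary like the libraries of the other age.

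Ratios of 2 members within 1 library are free of the scaling between libraries, though not of a trend on gene length, and they set an opposing pair side by side. BIM binds all 3 guardians, so its RNA was set against Bcl2 and Mcl1. Per length, Bcl2l11 over Mcl1 was 0.308 in the knockout and 0.122 in the wild type at 8 months, and 0.234 in the knockout and 0.219 in the wild type at 2 months. The ratio was 2.52-fold higher in the knockout at 8 months, with a log2 change of 1.33 (1.26 to 1.41), against 0.09 (0.01 to 0.17) at 2 months. With the trend of folds on gene length subtracted, these log2 changes became 1.13 and -0.01, so no direction holds at 2 months. Both terms contributed at 8 months, a higher Bcl2l11 and a lower Mcl1.

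Bcl2l11 over Bcl2 was 2.97 in the knockout and 1.72 in the wild type at 8 months, and 1.37 in the knockout and 1.59 in the wild type at 2 months. The knockout was higher at 8 months (log2 0.79, 0.69 to 0.90) and lower at 2 months (log2 -0.22, -0.31 to -0.12). With the trend on gene length subtracted these changes were 0.95 and -0.11. In the knockout this ratio was 2.17-fold higher at 8 than at 2 months, whereas in the wild type it was 1.08-fold higher.

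NOXA and PUMA were set against Mcl1. Pmaip1 over Mcl1 was 0.0587 in the knockout and 0.0315 in the wild type at 8 months, and 0.0328 in the knockout and 0.0452 in the wild type at 2 months. Bbc3 over Mcl1 was 0.109 in the knockout and 0.0529 in the wild type at 8 months, and 0.0980 in the knockout and 0.105 in the wild type at 2 months. For Bbc3 the knockout ratio at 8 months was 2.06-fold that of the wild type, and the wild type at 8 months was the library that stood apart from the other 3.

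The effectors gave the other direction. Bax over Bcl2 was 4.65 in the knockout and 7.49 in the wild type at 8 months, and 3.62 in the knockout and 5.16 in the wild type at 2 months. As counted, the log2 change of knockout over wild type was -0.69 (-0.81 to -0.56) at 8 months, against -0.51 (-0.63 to -0.39) at 2 months. With the trend of folds on gene length subtracted, an alternative added after the values were seen, these became 0.05 and -0.10, so no direction by genotype holds for this ratio. By age it was higher at 8 than at 2 months in both genotypes with and without that step. Bak1 over Mcl1 was 0.109 in the knockout and 0.146 in the wild type at 8 months, and 0.192 in the knockout and 0.231 in the wild type at 2 months. Bak1 over Mcl1 was lower in the knockout at both ages and lower at 8 months in both genotypes, also with that trend subtracted (log2 -0.28 by genotype at 8 months and -0.16 at 2 months).

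Within the guardians, Bcl2l1 over Bcl2 was 0.850 in the knockout and 0.857 in the wild type at 8 months, and 0.442 in the knockout and 0.601 in the wild type at 2 months. The 8-month libraries were alike as counted (log2 change 0.47 with the trend on gene length subtracted), and each was above the 2-month library of its genotype. The widest ratios, chosen after the values were seen, were those with Bak1 below the line. Bcl2l11 over Bak1 was 2.84 in the knockout and 0.837 in the wild type at 8 months, a 3.39-fold difference, and 1.21 in the knockout and 0.949 in the wild type at 2 months. Its log2 change at 8 months was 1.76 (1.62 to 1.90) as counted and 1.42 with the trend on gene length subtracted.

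**Figure D3:**
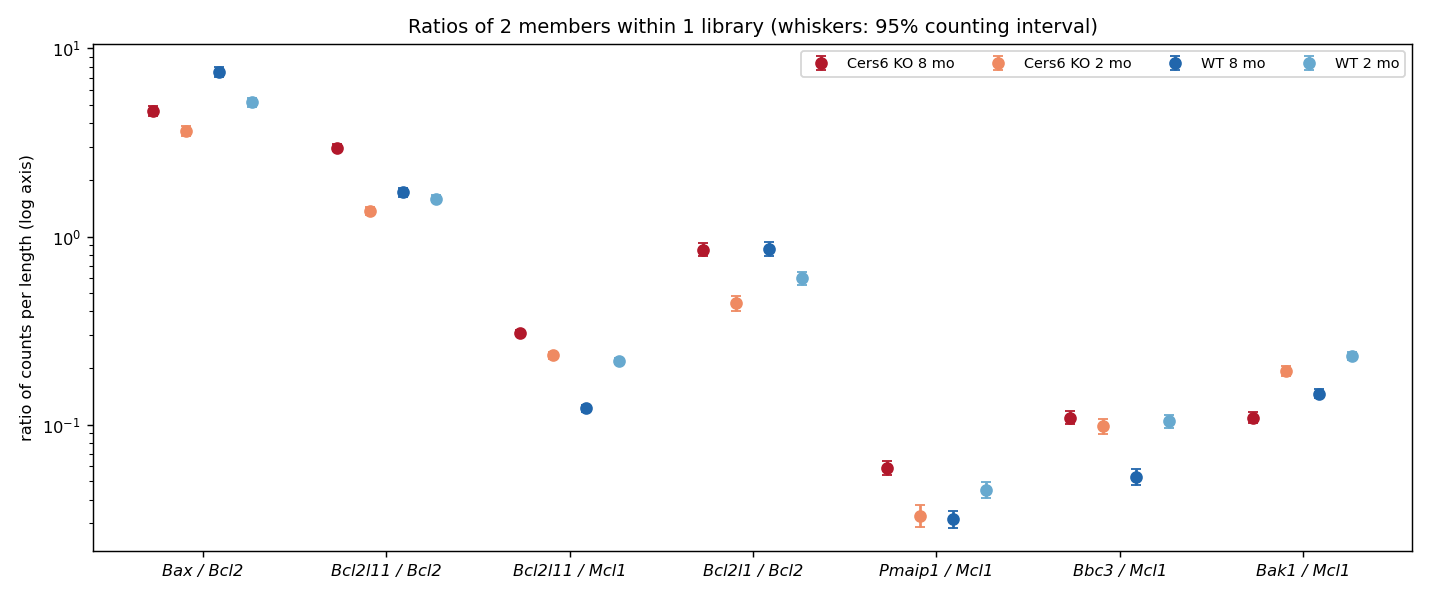
Ratios of 2 members within each library, per length and on a log axis, for the Cers6 knockout at 8 and 2 months and the wild type at 8 and 2 months, with whiskers for the 95% counting interval. Bcl2l11 over Mcl1 is highest in the knockout at 8 months (0.308) and lowest in the wild type at 8 months (0.122), and Bax over Bcl2 is plotted as counted, lower in the knockout at each age (4.65 against 7.49 at 8 months), an order that is lost when the trend of folds on gene length is subtracted.

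The genes whose CPM followed a member most closely over the 4 libraries were taken for the 3 members with the widest range, by the root mean square difference of log2 CPM centred on the mean. Nearest to Bak1 were Tma7 (0.0173), Mrpl51 (0.0177), encoding a protein of the mitochondrial ribosome, and Slc37a4 (0.0187), which encodes a glucose 6-phosphate transporter. Mrpl51, for example, had 37.9, 68.5, 65.6 and 77.7 CPM in the knockout at 8 months, knockout at 2 months, wild type at 8 months and wild type at 2 months. Among the nearest to Bcl2l11 were Tmem38a (0.0337) and Fam46a (0.0339). Nearest to Bcl2 were Spidr (0.0297), Polh (0.0532), which encodes a DNA polymerase for damaged templates, and Slc39a8 (0.0618), which encodes a zinc importer. With only 4 points per gene, many genes can come this close.

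The rest of the cell death machinery was read from 7 lists of related genes. They hold 96 genes, of which 92 were tested, and by edgeR's quasi-likelihood test with Benjamini-Hochberg adjustment 0 passed higher and 0 lower for genotype, where 12 (13.0%) had an unadjusted p under 0.05, against 8.36% of all 13906 genes. For age 0 passed higher and 0 lower, with 9 (9.78%) at an unadjusted p under 0.05, against 8.22% of all genes. All values of single genes below are therefore descriptions of the 4 libraries.

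Of the other guardians, 3 of 5 had 2 CPM or more in a library. Bcl2l2, encoding BCL-W, had 16.8 CPM in the knockout against 21.0 CPM in the wild type at 8 months. Bcl2a1d, of the A1 guardians that NF-kB induces, had 55.9 CPM in the knockout and 49.3 CPM in the wild type at 8 months, and Bcl2a1a had 0.342 CPM in the knockout and 3.78 CPM in the wild type. The A1 copies are near-identical in sequence, so their split is uncertain.

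Of the other BH3-only and effector genes, 7 of 11 passed 2 CPM, and their median log2 fold of knockout over wild type was -0.20 at 8 months and 0.14 at 2 months. Bmf, a BH3-only gene like Bcl2l11, was the 1 gene of this list 2-fold higher at 8 months, where 10.4% of all genes were. It had 53.1 CPM in the knockout and 19.7 CPM in the wild type (log2 fold 1.43). At 2 months it had 24.7 CPM in the knockout and 17.7 CPM in the wild type. Bnip3 and Bnip3l, mitophagy receptors with BH3-like stretches, went the other way at 8 months. Bnip3l had 244 CPM in the knockout and 419 CPM in the wild type at 8 months, and 518 CPM in the knockout and 459 CPM in the wild type at 2 months. Bnip3 had 199 CPM in the knockout and 282 CPM in the wild type at 8 months.

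Downstream of the mitochondria, all 18 genes of the apoptosome, caspases and their inhibitors passed 2 CPM, with a median log2 fold of -0.15 at 8 months and of 0.12 at 2 months. At 8 months 0 were 2-fold higher and 2 were 2-fold lower in the knockout, beside 10.4% and 6.47% of all genes. The lower ones were Endog, a mitochondrial nuclease gene, at 2.70 CPM in the knockout against 10.6 CPM in the wild type (log2 fold -1.94), and Birc5, at 67.7 CPM in the knockout against 171 CPM in the wild type (log2 fold -1.34). Birc5 encodes survivin, which also serves chromosome segregation in dividing cells. Birc6, a giant inhibitor of apoptosis, had 315 CPM in the knockout and 172 CPM in the wild type at 8 months, and 267 CPM in the knockout and 182 CPM in the wild type at 2 months.

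In the death receptor path, 15 of 15 genes passed 2 CPM, with a median of 0.16 at 8 months and -0.08 at 2 months. The widest fold was that of Fasl, the ligand of FAS. It had 8.22 CPM in the knockout against 0.708 CPM in the wild type at 8 months, a log2 fold of 3.37, and 3.54 CPM in the knockout against 6.27 CPM in the wild type at 2 months, a log2 fold of -0.81. The outlying library was the wild type at 8 months, which also had the lowest sum of NK cell markers (92.0 CPM, against 274 to 421 CPM in the other libraries). Fasl is made by NK cells and cytotoxic T cells alike, and the part of NK cells in this value was not tested. Fadd, the adaptor between FAS and caspase 8, had 4.58 CPM in the knockout and 13.0 CPM in the wild type at 8 months (log2 fold -1.49). Tnfsf10, encoding the ligand TRAIL, had 21.0 CPM in the knockout and 10.005 CPM in the wild type at 8 months (log2 fold 1.06). Receptor, ligand and adaptor of the FAS path thus did not point one way at 8 months.

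Trp53 and its targets were a list of 20 genes, with 19 past 2 CPM and a median log2 fold of 0.19 at 8 months and of 0.03 at 2 months. Trp53 itself had 75.2 CPM in the knockout and 148 CPM in the wild type at 8 months (log2 fold -0.97), and 137 CPM in the knockout and 139 CPM in the wild type at 2 months. Mdm4, which encodes an inhibitor of p53, had 414 CPM in the knockout and 229 CPM in the wild type at 8 months. Cdkn1a, a classical p53 target, had 35.3 CPM in the knockout and 31.1 CPM in the wild type at 8 months, a log2 fold of 0.18. Perp, another p53 target, was the 1 gene of the list past 2-fold at 8 months (0 higher, 1 lower, beside 10.4% and 6.47% of all genes). It had 1.20 CPM in the knockout and 2.69 CPM in the wild type, a log2 fold of -1.11. Bbc3, Pmaip1 and Fas, also known as p53 targets, had log2 folds of 0.64, 0.49 and 0.91.

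Survival inputs (cytokine receptors, NF-kB and related genes) were 19 genes, all past 2 CPM, with a median log2 fold of 0.19 at 8 months and of 0.13 at 2 months. At 8 months 3 of 19 were 2-fold higher in the knockout and 0 were 2-fold lower, beside 10.4% and 6.47% of all genes. Rel, an NF-kB subunit that serves T cell activation, had 95.4 CPM in the knockout and 37.0 CPM in the wild type (log2 fold 1.36). Il7r, the receptor of the survival cytokine IL-7, had 123 CPM in the knockout and 50.6 CPM in the wild type (log2 fold 1.28). Il2ra, the high-affinity chain of the IL-2 receptor, had 183 CPM in the knockout and 82.5 CPM in the wild type (log2 fold 1.15). Il7r and Il2ra, like Bcl2l11 and Fas, were lowest in the wild type at 8 months, which had the highest sum of B cell markers (4144 CPM, against 1803 to 2929 CPM in the other libraries). The part of B cells in these values was not tested.

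Of the 8 genes that control MCL1 turnover or form mitochondrial channels, all passed 2 CPM, with a median log2 fold of -0.26 at 8 months and of 0.02 at 2 months. At 8 months 1 was 2-fold higher and 1 was 2-fold lower in the knockout, beside 10.4% and 6.47% of all genes. At 2 months 1 was 2-fold higher and 0 were lower, beside 0.923% and 2.08% of all genes. The lower gene at 8 months was Bcap31, at 70.6 CPM in the knockout against 149 CPM in the wild type (log2 fold -1.08). Usp9x, the deubiquitinase that stabilises MCL1, was 2-fold higher in the knockout at both ages. It had 130.2 CPM in the knockout and 64.0 CPM in the wild type at 8 months (log2 fold 1.02), and 166 CPM in the knockout and 80.5 CPM in the wild type at 2 months (log2 fold 1.05), with an edgeR adjusted p of 0.263. Huwe1, a ubiquitin ligase of MCL1, had 417 CPM in the knockout and 247 CPM in the wild type at 8 months, and 327 CPM in the knockout and 250.4 CPM in the wild type at 2 months. Bcap31, Usp9x and Huwe1 are X-linked, and the wild type at 2 months was the library with Xist.

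**Figure D4:**
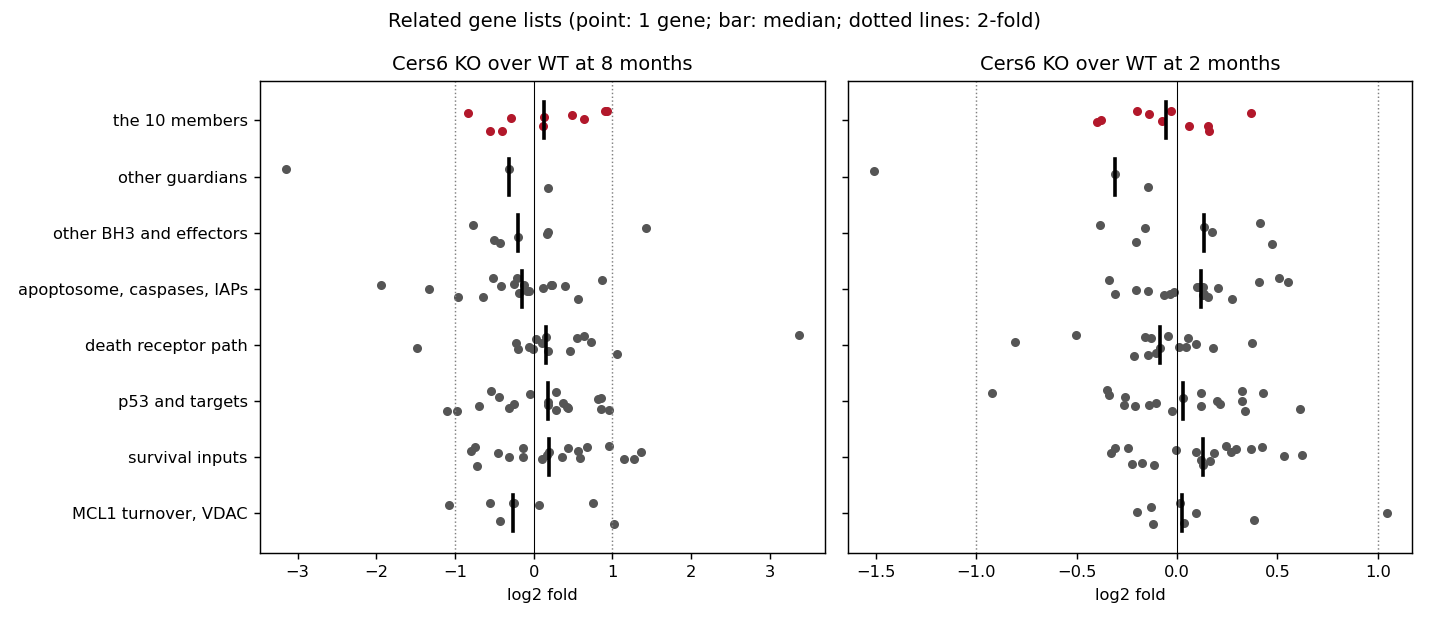
Log2 fold of Cers6 knockout over wild type at 8 months (left) and 2 months (right) for the 10 members (red) and 7 lists of related genes (grey, genes with 2 CPM or more in a library), with a bar at each list's median and dotted lines at 2-fold. The members' medians are 0.13 and -0.05, and the point farthest to the right at 8 months is Fasl (3.37).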

How the data were processed

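RNA of 4 libraries was grouped by the labels (genotype and age). Per the file headers, the deposited table holds raw counts per gene, FPKM, log2 fold changes and adjusted p-values of the authors for 4 contrasts. The submitters' processing notes name CASAVA, STAR, GRCm38 and mm10. No source used here gives the counter, annotation or strand setting. The deposited FPKM equal counts per deposited length and library total, and the authors' log2 folds and p-values were only copied. For 27 genes a spreadsheet date stood in place of the symbol, and the symbol was looked up by identifier.

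Levels are CPM scaled with TMM (edgeR 4.0.16, R 4.3.3), with factors of 1.15 (Cers6 knockout, 8 months), 0.949 (knockout, 2 months), 0.968 (wild type, 8 months) and 0.947 (wild type, 2 months). Folds between single libraries use a prior count of 2 and no test, and their intervals (95%, exact) use the plain ratio. They were counted at 2-fold over the 12133 genes reaching 2 CPM in any library. Genotype and age were tested by edgeR's quasi-likelihood test in 1 additive model. It ran on the 13906 genes that filterByExpr kept, and p-values were adjusted over all of them (Benjamini-Hochberg, threshold 0.05). There is 1 residual degree of freedom, a biological coefficient of variation of 0.267 and 15.4 prior degrees of freedom. The test was also run on simulated counts with a fixed spread, in which no genotype effect differed between ages. That run therefore does not show how the test treats genes whose genotype effect differs between ages. The filter was applied with the design of the other factor, which keeps the same genes as the additive design.

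Alternatives were other scalings, filters and prior counts, subtraction of the trend of folds on gene length, DESeq2 1.42.0, limma-voom (limma 3.58.1), models of the tested factor only, each library left out, and genes of other cells left out. Named genes are the 10 members, up to 4 genes of each related list with the largest absolute log2 fold in any contrast, Cers6, marker sums and the genes most like a member, and some genes that this rule names are not reported here. Of 198 list genes, 2 were matched by identifier under an older symbol. The members, lists and tests were chosen with earlier results of these data known. Xist, the Y-linked genes, the FPKM shares, the ratio of Bcl2l11 to Bak1 and the subtraction of the length trend from ratios were added after values were seen. P-values measure the spread between these libraries, which may be technical.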

Additional observations from a re-analysis of the deposited data

Results flagged for a closer look

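In 4 members the fold had opposite signs in the groups compared, with counting intervals that exclude 0 on both sides. The share of all genes that meet this rule was not computed, so the count of members is a description only. Bbc3 and Bcl2l1 also had opposite signs, with an interval that holds 0 on at least 1 side. Each group is 1 library, and the difference was not tested in any of these cases.

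Pmaip1 was higher in Cers6 knockout than in wild type at 8 months (log2 fold 0.49) and lower at 2 months (-0.40), a difference of 0.89. Mcl1 was lower in knockout at 8 months (log2 fold -0.41) and slightly higher at 2 months (0.06), a difference of -0.47. The same difference of -0.47 separates its folds of 8 over 2 months, which were -0.06 in knockout and 0.41 in wild type. The knockout value of Mcl1 with age became positive with library size alone and with scaling on T cell genes.

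Bcl2l11 and Fas had opposite folds of 8 over 2 months in the genotypes. For Bcl2l11 these were 0.34 in knockout and -0.43 in wild type, a difference of 0.77. For Fas they were 0.28 in knockout and -0.47 in wild type, a difference of 0.75.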

How the results depend on the processing

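For genotype 4 genes were called. The count was 0 with library size alone (938 at an unadjusted p under 0.05 in edgeR) and with the tested factor only (804), 2 with scaling on T cell genes, 2 without other cells' genes, 12 with limma-voom, 18 with DESeq2, 101 at a mean of 5 CPM or more and 135 without a filter. Leaving out 1 library gave 0 to 472 calls: 114 without the wild type at 2 months, 2 without the wild type at 8 months, 472 without the knockout at 2 months, and 0 without the knockout at 8 months (1184 at an unadjusted p under 0.05). For age 32 genes were called, against 0 with library size alone (807 at an unadjusted p under 0.05) and with the tested factor only (830), 18 with scaling on T cell genes, 20 with median-of-ratios factors, 55 with limma-voom, 60 with DESeq2, 126 at 5 CPM or more and 199 without a filter. Leaving out 1 library gave 0 to 3447 calls: 0 without the wild type at 2 months (326 at an unadjusted p under 0.05), 3447 without the wild type at 8 months, 2 without the knockout at 2 months and 716 without the knockout at 8 months. The cause was not tested. Members called were 0 in all of these settings except the age effects of Bcl2 and Bak1 without the wild type at 8 months and of Bcl2 without the knockout at 8 months.

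At 8 months the number of members 2-fold apart between genotypes was 2 with library size alone and 2 with scaling on T cell genes (Bcl2l11 and Fas), and 1 (Fas) with the trend on gene length subtracted. With age in the knockout it was 1 (Pmaip1) under each of the first 2. Library size alone moved the median of all genes by 0.25 at 8 months and by 0.28 with age in the knockout, and scaling on T cell genes by 0.15, by 0.39 and, with age in the wild type, by 0.24. Over these settings the log2 fold of knockout over wild type at 8 months ranged from 0.72 to 1.17 for Bcl2l11, 0.89 to 1.19 for Fas and -0.85 to -0.58 for Bak1. The genes nearest to Bcl2l11 and Bcl2 changed at a mean of 20 CPM, where Sun1 took the place of Tmem38a and Brca2 that of Slc39a8. No paired analysis was possible because the labels give no replicate numbers shared between groups.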
